A study of Mus musculus with 6 samples.

Results

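The genes described here encode the receptors for platelet-derived growth factor (PDGF) and for Kit ligand, with their ligands, in the mouse kidney at embryonic day 12.5. The members were all probe sets of the array whose only gene symbol is Pdgfra, Pdgfrb, Pdgfa, Pdgfb, Pdgfc, Pdgfd, Kit or Kitl. These 8 genes, of 18194 named on the array, have 20 of its 45101 probe sets. RNA of whole kidneys was hybridised to Affymetrix mouse whole-genome arrays, with 3 biological replicates of each genotype and 1 array per replicate. The Ret-deficient kidneys and the wild-type kidneys both came from C57BL/6 embryos of that day, and no treatment was given to either. The titles and genotype fields describe the kidneys as deficient in Ret, while the source field attaches the knockout to the pregnant female; the titles were followed. Neither the Ret allele nor the litters or embryo numbers behind a sample are given in the labels, so p values measure the spread between these samples only.

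PDGF ligands are dimers that bind 2 receptor tyrosine kinases, and in development they act mostly from epithelium or endothelium on the mesenchyme beside them. PDGF-A and PDGF-C signal through the alpha receptor, PDGF-D through the beta receptor and PDGF-B through both. PDGF-C and PDGF-D are secreted in a latent form that proteases activate. Kit is the related receptor for Kit ligand (Kitl, stem cell factor), which exists as a membrane-bound and a soluble protein; the pair is best known from blood progenitors, mast cells, germ cells and melanoblasts. In the mouse kidney Pdgfb from endothelium and Pdgfrb on mesangial progenitors are needed for the glomerular mesangium, Pdgfra marks mesenchyme, and Kitl has been described in the ureteric bud with Kit in interstitial cells of the rodent kidney. Kit lies next to Pdgfra among the coding genes of its chromosome, and Csf1r, the receptor of macrophages, lies next to Pdgfrb.

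The promoter windows of Kitl and Kit are shown because this ligand and its receptor are the members with probe sets whose groups did not overlap, in opposite directions. Over all tested probe sets the groups were apart at 5.54% on the lower and 5.17% on the higher side. The windows come from RefSeq, build GRCm38.p6, and run from 250 bases before to 50 after the transcript start on the plus strand. They lie at chr10:100015571-100015870 for Kitl and chr5:75574737-75575036 for Kit. Capitals mark 3 motifs searched on both strands. These were the TATA box core, spelled TATAAA, the binding motif of Sp factors, spelled GGGCGG, and the core bound by ETS factors, spelled CCGGAA.
Kitl promoter: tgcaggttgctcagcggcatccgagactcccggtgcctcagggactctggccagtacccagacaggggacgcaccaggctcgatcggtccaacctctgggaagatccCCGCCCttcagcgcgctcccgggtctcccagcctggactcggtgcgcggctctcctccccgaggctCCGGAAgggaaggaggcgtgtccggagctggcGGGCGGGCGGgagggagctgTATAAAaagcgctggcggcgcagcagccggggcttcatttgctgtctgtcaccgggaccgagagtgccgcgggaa
Kit promoter: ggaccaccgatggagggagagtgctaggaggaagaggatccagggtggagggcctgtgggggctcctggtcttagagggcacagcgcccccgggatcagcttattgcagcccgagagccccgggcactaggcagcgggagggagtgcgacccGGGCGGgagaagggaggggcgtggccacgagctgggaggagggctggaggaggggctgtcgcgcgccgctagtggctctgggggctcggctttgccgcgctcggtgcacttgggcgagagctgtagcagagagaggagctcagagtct
The Kitl window holds 1 TATAAA, 3 GGGCGG matches of which a pair overlap, and 1 CCGGAA; the Kit window holds 1 GGGCGG and 0 of the others. Over all 32851 windows of this length 13.6% hold TATAAA, 35.7% GGGCGG and 14.9% CCGGAA. These matches describe the letters of the windows and are not measured binding sites.

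Values are MAS5 signals, linear intensities that the authors had scaled to an equal trimmed mean on each array, so a difference is relative to the rest of the kidney RNA. Where several values of a group are listed they are in the order of replicates 1, 2 and 3. Ret itself read 93.3, 480 and 334 in Ret-deficient kidneys, against 13315, 11042 and 10193 in wild-type kidneys (probe set 1436359_at). Genes of the ureteric epithelium varied among the Ret-deficient samples: the median of 13 listed genes stood at -3.20, -0.42 and -0.71 log2 units from the wild-type mean in Ret-deficient replicates 1, 2 and 3, and at -0.17 to 0.09 in the wild-type samples. Wild-type replicate 1 had a ratio of 3 prime to 5 prime beta-actin signal of 10.69, against 3.88 to 5.21 on the other arrays. The brightest of 27 Bacillus subtilis control probe sets, which match no mouse RNA, read 117 to 133 on Ret-deficient and 97.2 to 187 on wild-type arrays; a signal at or below that of its own array is called background here. The number of arrays limits the precision, and the smallest p of an exact permutation test is 0.1 with 3 arrays in each group.

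Kitl was lower in Ret-deficient kidneys on all 4 of its probe sets, and the 3 receptors were level or slightly higher, but no difference passed the test across the array. The tested probe sets of Pdgfa, Pdgfc and Pdgfd had differences of -0.19 to 0.20, with intervals that reach from -0.79 to 0.92. Of the 20 probe sets 15 were bright enough to be tested (mean over all arrays on the log2 scale at or above the median of the array), and they cover 7 genes; Pdgfb has no tested probe set. In limma 0 of the 15 had an adjusted p under 0.05, and 0 of 22519 probe sets of the array did (0%). Ret itself did not pass (1436359_at, log2 difference -5.43, SE 0.53, limma adjusted p = 0.510), so a count of 0 does not show that the members were unchanged. At an unadjusted p under 0.05 there were 2 of 15, both of Kitl and lower, where 2.74% of all tested probe sets passed on that side. The groups did not overlap at 3 of the 15 on the lower side, all of Kitl, and at 1 on the higher side, of Kit. Over all tested probe sets these shares were 5.54% on the lower side and 5.17% on the higher side. The 4 Kitl probe sets measure 1 transcript and are not independent, so the 3 count as 1 gene. The median log2 difference was -0.02 over the 15 and -0.01 over all tested probe sets. Among the 15, 5 of 6 receptor probe sets had a positive difference, and 7 of 9 ligand probe sets a negative one. Of these 7, 4 were of Kitl and 2 of Pdgfc, so they are not independent. By the brightest probe set of each gene 3 of 7 genes were positive and 4 negative. Over all 22519 tested probe sets 10873 were positive and 11646 negative.

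**Figure D1:**
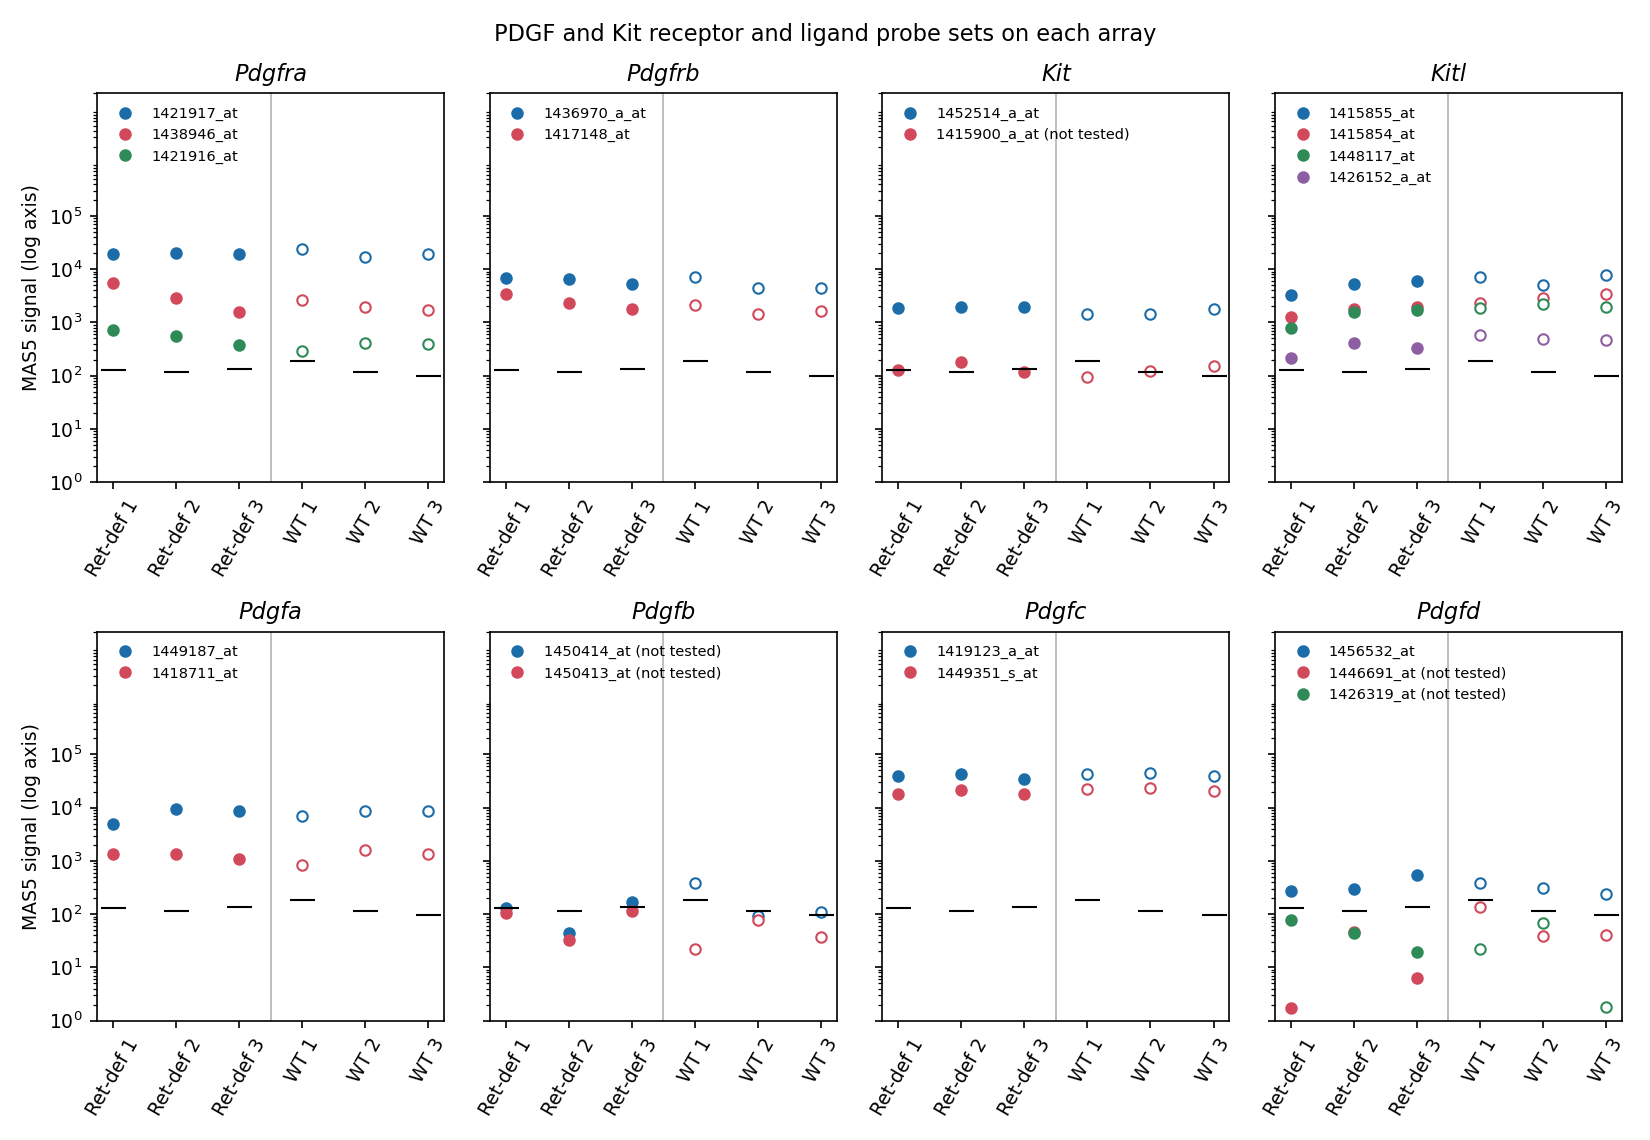
MAS5 signal (log axis) of all 20 probe sets of the 8 genes on each array, Ret-deficient replicates as filled and wild-type replicates as open circles; black bars mark the brightest Bacillus subtilis control of each array. The Kitl points are lowest in Ret-deficient replicate 1, while Pdgfb and 2 of 3 Pdgfd probe sets lie around or under the bars.

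Kitl, the ligand of Kit, had the lowest values in Ret-deficient replicate 1 on every probe set. Probe set 1415854_at read 1275, 1794 and 1937 in Ret-deficient kidneys, against 2355, 2926 and 3484 in wild-type kidneys. All 3 Ret-deficient values were below all wild-type values, and the means were 1669 ± 348 and 2922 ± 564 (SD, n = 3 each). The log2 difference was -0.81 (SE 0.24, 95% interval -1.37 to -0.25), a fold of 0.572, with limma adjusted p = 0.867 and an exact two-sided permutation p of 0.1, the smallest this design can give. Probe set 1426152_a_at read 214, 412 and 334 in Ret-deficient kidneys, against 587, 485 and 468 in wild-type kidneys. Here too the groups were apart, with a log2 difference of -0.70 (SE 0.26, 95% interval -1.31 to -0.08). For 1448117_at the values were 801, 1557 and 1737 in Ret-deficient kidneys, against 1898, 2203 and 1913 in wild-type kidneys. Its groups did not overlap either, but Ret-deficient replicate 3 came close to the lowest wild-type sample, and the difference of -0.62 had an 95% interval of -1.34 to 0.10. The brightest probe set of the gene, 1415855_at, read 3250, 5368 and 5983 in Ret-deficient kidneys, against 7216, 4965 and 7825 in wild-type kidneys. It overlapped, because wild-type replicate 2 lay below Ret-deficient replicates 2 and 3, and its difference was -0.47 (SE 0.29, 95% interval -1.17 to 0.23; limma adjusted p = 0.937).

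The size of the Kitl difference depended on Ret-deficient replicate 1. The 4 probe sets stood, relative to the wild-type mean, at -1.30 to -1.01 log2 units in that sample, at -0.68 to -0.29 in replicate 2 and at -0.59 to -0.13 in replicate 3. Without Ret-deficient replicate 1 the differences were -0.63 for 1415854_at, -0.45 for 1426152_a_at, -0.28 for 1448117_at and -0.21 for 1415855_at, with limma adjusted p of 0.913 to 0.9998. Over all 6 arrays left out in turn the 4 differences lay between -0.95 and -0.21. Under the 9 other processing settings the 4 Kitl differences stayed negative, between -0.89 and -0.30. Across the 6 arrays the probe sets followed each other with Pearson r of 0.76 to 0.89, a description over arrays they share.

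Markers of the ureteric epithelium were, like Kitl, lowest as a list in Ret-deficient replicate 1, and their part in the Kitl difference was not tested. All 13 listed epithelial genes had negative differences and 0 passed the adjusted threshold. Their median was lower in Ret-deficient replicate 3 (-0.71) than in replicate 2 (-0.42). Kitl 1415855_at, 1415854_at and 1448117_at were lower in replicate 2 than in replicate 3, and 1426152_a_at was lower in replicate 3. The summed signal of the list was 7703, 65023 and 52846 in Ret-deficient kidneys, against 75320, 88093 and 85755 in wild-type kidneys. In Ret-deficient replicate 1, 5 of the 13 were at background, among them the E-cadherin gene Cdh1 (71.7), Lhx1 (5) and the claudin genes Cldn7 (10.1) and Cldn3 (69.3). Kitl itself stayed above background in that sample on all 4 probe sets, where the lowest read 214 against a control of 128. In whole kidneys fewer cells of a type and less RNA per cell cannot be told apart. In Ret-deficient replicate 2, 7 of the 13 epithelial genes were below every wild-type sample and 3 above, and 3 of 4 Kitl probe sets were below, where 29.8% of all tested probe sets were below on that array.

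**Figure D2:**
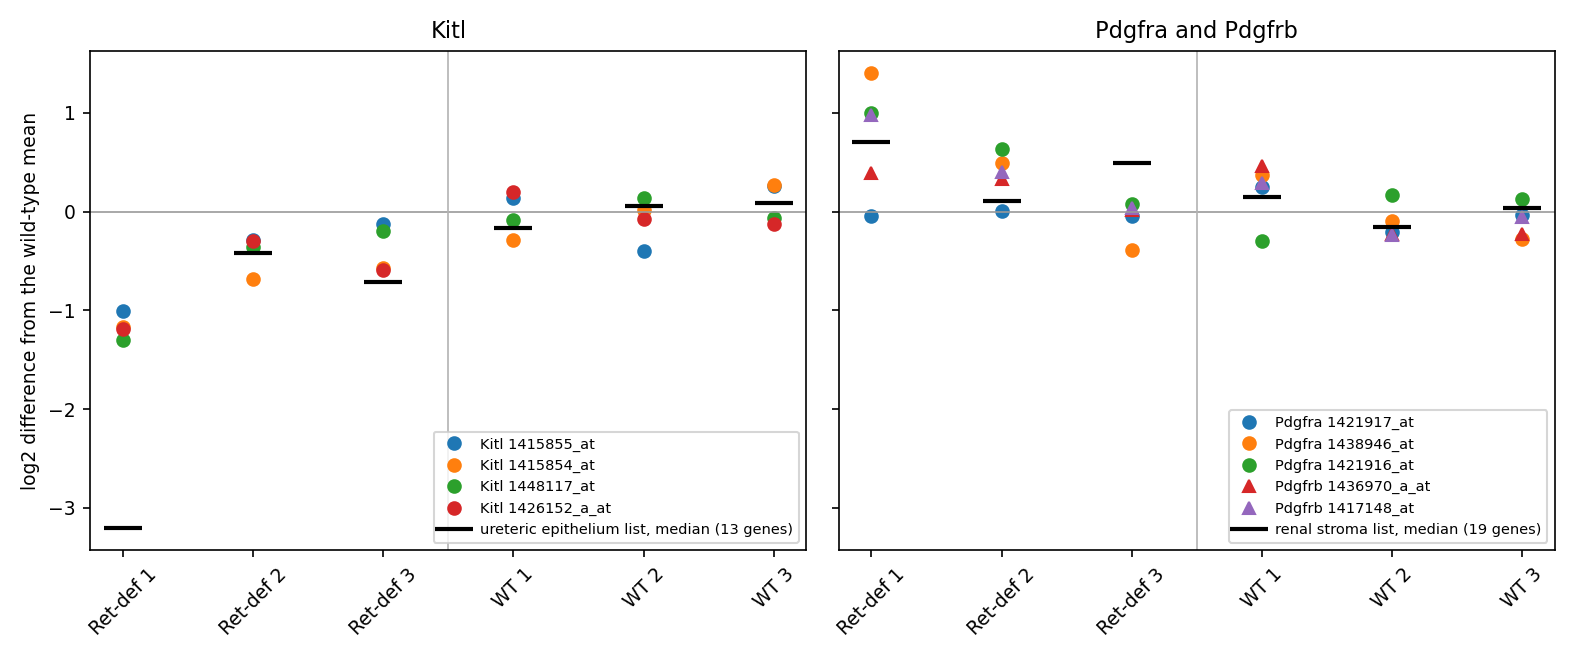
Log2 difference of each array from the wild-type mean, Ret-deficient arrays left of wild-type arrays: left panel, the 4 Kitl probe sets with the median of 13 ureteric epithelium genes (bar); right panel, Pdgfra (circles) and Pdgfrb (triangles) probe sets with the median of 19 renal stroma genes (bar). Kitl and the epithelial list are lowest in Ret-deficient replicate 1, at -1.30 to -1.01 and -3.20, while Pdgfra 1438946_at is highest there, at 1.40.

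Kit was slightly higher in Ret-deficient kidneys on its tested probe set. Probe set 1452514_a_at read 1840, 1913 and 1925 in Ret-deficient kidneys, against 1427, 1459 and 1821 in wild-type kidneys. The groups did not overlap, although wild-type replicate 3 reached within a few percent of the lowest Ret-deficient sample. The log2 difference was 0.28 (SE 0.17, 95% interval -0.12 to 0.67), with limma adjusted p = 0.937 and an exact two-sided permutation p of 0.1. It lay between 0.21 and 0.39 with 1 array left out in turn. The other probe set, 1415900_a_at, read 128, 177 and 119 in Ret-deficient kidneys, against 95.7, 123 and 153 in wild-type kidneys, and was above background on 1 Ret-deficient and 2 wild-type arrays, so no fold is given. The part of other cell types in the Kit values was not tested, and the markers of those in which Kit is best known had the following values. The mast cell genes Cpa3, Fcer1a, Mcpt4 and Ms4a2 were at background on all 6 arrays. Another mast cell gene, Hdc, was above background in Ret-deficient replicate 2 (213) and wild-type replicate 3 (112) only. The summed signal of the 11 blood progenitor and mast cell genes was 21371 to 31061 in Ret-deficient and 20102 to 24729 in wild-type kidneys. Gata2 alone gave 16628 to 18587 and 11068 to 17639 of it. Of 9 gonad and germ cell genes 3 were at background on all 6 arrays (Amh, Dazl and Pou5f1). The 9 summed to 10396 to 15701 in Ret-deficient and 9578 to 11935 in wild-type kidneys. Most of each sum was Sox9, at 9803 to 15227 and 9097 to 10041. In wild-type replicate 1 only 3 of the 9 were at background, against 5 to 8 on the other arrays. Gata4 read 1390 there, 394 in Ret-deficient replicate 2 and 47.6 to 103 on the other arrays. The 10 neural crest genes summed to 14931 to 24486 in Ret-deficient and 27286 to 31192 in wild-type kidneys. Of the 7 tested, 3 had a positive and 4 a negative difference. Tfap2a gave 249 to 4637 of the sum in Ret-deficient and 6568 to 7894 in wild-type kidneys, and Ednrb 5163 to 10907 and 5974 to 6350.

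The probe sets of Pdgfra, the alpha receptor of the mesenchyme, disagreed. The brightest, 1421917_at, read 19492, 20138 and 19448 in Ret-deficient kidneys, against 23743, 17243 and 19525 in wild-type kidneys. The Ret-deficient samples lay within the wild-type range, with means of 19693 ± 386 and 20171 ± 3298 (SD, n = 3 each). Its log2 difference was -0.02 (SE 0.18, 95% interval -0.44 to 0.40; limma adjusted p = 0.996), which turned to 0.09 with median centring, 0.13 with array quality weights and 0.10 without wild-type replicate 1. Probe set 1421916_at read 724, 558 and 377 in Ret-deficient kidneys, against 284, 402 and 389 in wild-type kidneys, a difference of 0.57 (SE 0.27, 95% interval -0.08 to 1.22). For 1438946_at the values were 5488, 2904 and 1565 in Ret-deficient kidneys, against 2663, 1938 and 1700.0 in wild-type kidneys, a difference of 0.50 (SE 0.45, 95% interval -0.56 to 1.56). In both of these Ret-deficient replicate 1 was the highest of all arrays and replicate 3 lay below a wild-type sample. Without Ret-deficient replicate 1 their differences were 0.36 and 0.05, and without replicate 3 they were 0.81 and 0.95. These 2 probe sets followed each other over the 6 arrays with r = 0.71, and 1421917_at followed them with r = -0.39 (1421916_at) and 0.21 (1438946_at), so the direction for Pdgfra depends on the probe set.

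Pdgfrb, the beta receptor of mural and mesangial progenitors, was positive on both probe sets without a separation of the groups. Probe set 1436970_a_at read 6871, 6582 and 5317 in Ret-deficient kidneys, against 7205, 4448 and 4460 in wild-type kidneys. Wild-type replicate 1 was the highest sample of all, and the difference was 0.25 (SE 0.24, 95% interval -0.33 to 0.83; limma adjusted p = 0.957). Without that array it was 0.48, without wild-type replicate 2 or 3 it was 0.13, and without Ret-deficient replicate 1 it was 0.18. Probe set 1417148_at read 3409, 2279 and 1780 in Ret-deficient kidneys, against 2111, 1459 and 1667 in wild-type kidneys. Ret-deficient replicates 1 and 2 were above every wild-type sample and replicate 3 was not, with a difference of 0.47 (SE 0.28, 95% interval -0.19 to 1.13), which was 0.22 without Ret-deficient replicate 1 and 0.69 without replicate 3.

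Markers of stroma leaned higher beside the PDGF receptors, and markers of mural cells varied within each genotype. The part of either list in the receptor values was not tested. Positive differences were found in 16 of 19 renal stroma genes and negative ones in 3; the median was 0.44 log2 units, against 0.00 over 11581 tested genes, and 0 passed the adjusted threshold. The summed signal of the stroma list was 235220 to 286569 in Ret-deficient kidneys and 203265 to 241839 in wild-type kidneys. Its median stood at 0.71, 0.11 and 0.49 from the wild-type mean in Ret-deficient replicates 1, 2 and 3, and at 0.15, -0.16 and 0.04 in the wild-type samples. Ret-deficient replicate 2 thus lay below wild-type replicate 1. Ret-deficient replicate 3 was high in stroma genes and near the wild-type mean in Pdgfrb (0.02 and 0.04). The mural cell list had a median of 0.12 over 10 tested genes, and its 13 genes summed to 47818 to 87376 in Ret-deficient and 46702 to 73510 in wild-type kidneys.

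**Figure D3:**
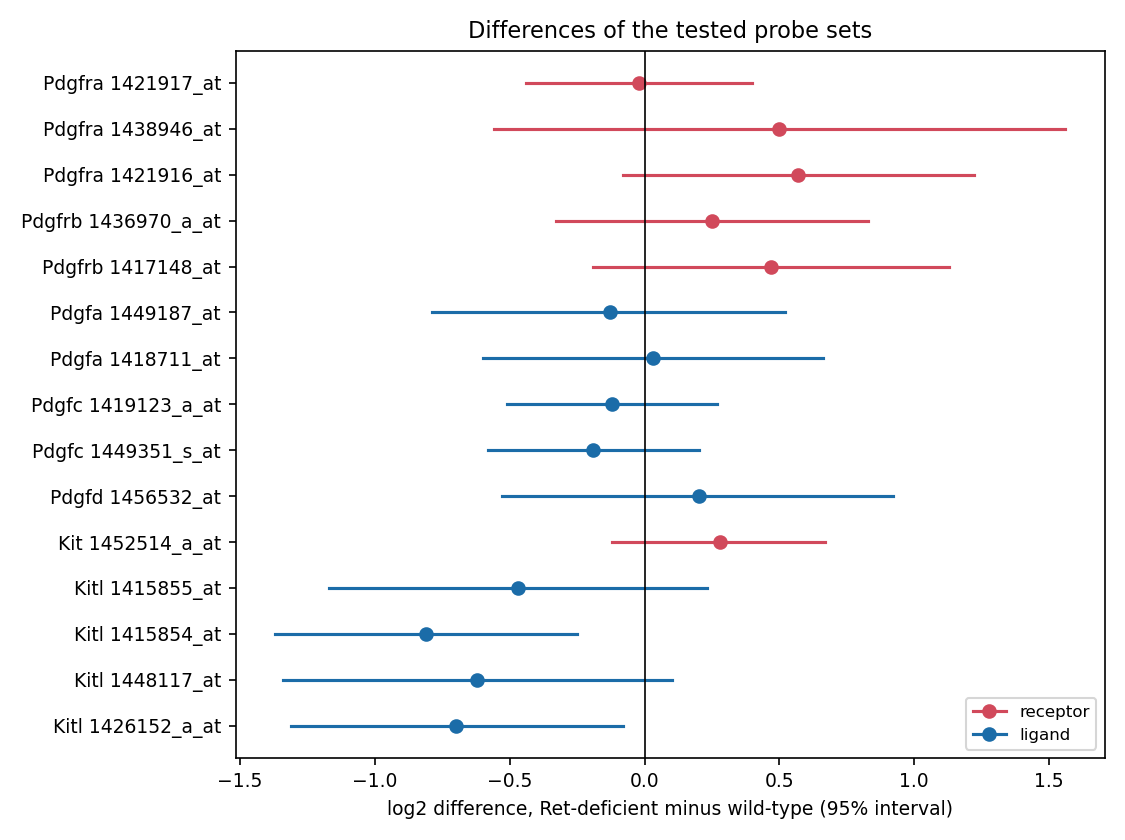
Log2 difference, Ret-deficient minus wild-type, of the 15 tested probe sets with its 95% interval from limma, receptors in red and ligands in blue. The intervals of Kitl 1415854_at and 1426152_a_at lie below 0 before adjustment, and the intervals of the other 13 include 0.

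Pdgfc, a ligand of the alpha receptor, had the smallest spread within groups among the tested PDGF ligands, with an SD of 0.13 log2 units on both probe sets. Probe set 1419123_a_at read 38805, 43565 and 34531 in Ret-deficient kidneys, against 42289, 44651 and 39997 in wild-type kidneys. The ranges overlapped, and the difference was -0.12 (SE 0.16, 95% interval -0.51 to 0.27; limma adjusted p = 0.967). Its second probe set, 1449351_s_at, read 18089, 21882 and 18065 in Ret-deficient kidneys, against 22799, 22946 and 20266 in wild-type kidneys. Ret-deficient replicates 1 and 3 lay below every wild-type sample there and replicate 2 did not, with a difference of -0.19 (SE 0.16, 95% interval -0.58 to 0.20). The pair followed each other over the arrays (r = 0.89). Both unadjusted intervals include 0 and reach further below it, to -0.51 and -0.58, than above it, to 0.27 and 0.20.

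Pdgfa, the other alpha receptor ligand tested, was low in Ret-deficient replicate 1 on one probe set and not on the other. Probe set 1449187_at read 4987, 9514 and 8542 in Ret-deficient kidneys, against 6912, 8809 and 8784 in wild-type kidneys. Replicate 1 was the lowest of all arrays and replicate 2 the highest, and the difference of -0.13 (SE 0.28, 95% interval -0.79 to 0.52; limma adjusted p = 0.982) turned to 0.15 without Ret-deficient replicate 1. Probe set 1418711_at read 1347, 1355 and 1105 in Ret-deficient kidneys, against 845, 1621 and 1375 in wild-type kidneys, a difference of 0.03 (SE 0.27). Here wild-type replicate 1 was the lowest sample, and the probe sets followed each other with r = 0.23.

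The ligands of the beta receptor were dim. Pdgfd had 1 tested probe set, 1456532_at, which read 268, 297 and 541 in Ret-deficient kidneys, against 377, 310.2 and 240 in wild-type kidneys. Ret-deficient replicate 3 alone lay above the wild-type range, and the difference of 0.20 (SE 0.31, 95% interval -0.53 to 0.92) was -0.10 without it. The other Pdgfd probe sets, 1446691_at and 1426319_at, were at background on all 6 arrays. Pdgfb, the endothelial ligand, read 132, 45 and 170 in Ret-deficient kidneys, against 386, 91.2 and 112 in wild-type kidneys (1450414_at), above background on 2 arrays of each genotype. Its second probe set, 1450413_at, was at background on all 6, so no change in Pdgfb is read from these signals. Endothelial genes as such were measured: the 14 listed genes were all above background on every array, with a median difference of 0.01 and a summed signal of 45898 to 55114 in Ret-deficient and 44322 to 68380 in wild-type kidneys.

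The other receptors of the structural class to which the PDGF receptors and Kit belong gave few values. Csf1r and its ligand gene Csf1 were tested, while Flt3 and Il34, another Csf1r ligand, were at background on all 6 arrays. Csf1r read 8846, 3941 and 17208 in Ret-deficient kidneys, against 5869, 4312 and 6866 in wild-type kidneys, a difference of 0.59 (SE 0.51). Its highest value was in Ret-deficient replicate 3, where the neighbouring gene Pdgfrb was near the wild-type mean. The summed signal of 12 macrophage genes was also highest in that sample (71869, against 20624 to 37703 on the other arrays). Csf1r is itself 1 of these 12 genes, so the sum is not separate from it, and C1qb alone gave 36742 of the 71869. Csf1 read 463 ± 119 and 519 ± 210 (SD, n = 3 each) in Ret-deficient and wild-type kidneys.

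Genes that process or bind PDGF showed no common direction. Of 8 listed 7 were tested, with 3 positive, 4 negative, a median of -0.00 and 0 past the adjusted threshold. Sparc, a matrix protein that binds PDGF, read 33810 ± 2146 in Ret-deficient and 30477 ± 3148 in wild-type kidneys. St14, the epithelial protease matriptase, read 84.6, 466 and 434 in Ret-deficient kidneys, against 187, 613 and 416 in wild-type kidneys, and was at background in Ret-deficient replicate 1. Lrp1, a co-receptor of Pdgfrb, had a difference of 0.10 (SE 0.30).

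Adaptors, kinases and phosphatases that couple these receptors to RAS, phosphoinositide and STAT signalling were level as a list. All 31 on the array were tested, 17 positive and 14 negative, with a median of 0.01 against 0.00 over all tested genes and 0 past the adjusted threshold. The groups did not overlap at 1 of the 31, on the lower side, where 5.73% of all tested genes are apart. That gene was Cbl, a ubiquitin ligase that ends receptor signalling, which read 2438, 1322 and 1758 in Ret-deficient kidneys, against 2565, 2820 and 2468 in wild-type kidneys (difference -0.55, SE 0.24, limma adjusted p = 0.924). The kinase gene Src read 2225, 2127 and 1738 in Ret-deficient kidneys, against 919, 1327 and 1809 in wild-type kidneys, and the adaptor gene Gab2 had a difference of 0.33 (SE 0.18).

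Genes that PDGF induces in mesenchymal cells leaned higher as a list. The early response genes among them, which many other signals induce as well, differed between the Ret-deficient samples. Of 11 tested 9 were positive and 2 negative, with a median of 0.29 against 0.00 over all tested genes, and 0 passed the adjusted threshold. The groups did not overlap at 2 of the 11, both higher, where 6.02% of all tested genes are apart on that side. Egr1, a zinc finger factor, read 41421, 30929.5 and 3968 in Ret-deficient kidneys, against 3874, 2309 and 2025 in wild-type kidneys, so that Ret-deficient replicate 3 lay just above the wild-type range. Fos read 33376, 38118 and 405 in Ret-deficient kidneys, against 2351, 3027 and 641 in wild-type kidneys. For Fos, Junb and Ier3, Ret-deficient replicate 3 lay below every wild-type sample. The kinase gene Sgk1 read 15171, 12047 and 11188 in Ret-deficient kidneys, against 8153, 7297 and 8406 in wild-type kidneys, a difference of 0.68 (SE 0.18, limma adjusted p = 0.867). The list median was 0.61 from the wild-type mean in Ret-deficient replicate 1 and 0.19 and 0.16 in replicates 2 and 3. Tiparp read 3907 ± 607 in Ret-deficient and 3192 ± 366 in wild-type kidneys (SD, n = 3 each), with overlap.

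The genes whose pattern over the 6 arrays was most like that of a member are given as a description, since with 6 arrays many of 11150 genes reach a high correlation by their number alone. For Pdgfrb 1436970_a_at they were Uhrf2 (r = 0.995), Iqcb1 (0.991) and Igfbp5 (0.991), an IGF-binding protein, and 31 genes were over 0.95. Igfbp5 read 30470.0, 28629 and 26467 in Ret-deficient kidneys, against 31297, 24209 and 24211 in wild-type kidneys, which repeats the high wild-type replicate 1 of Pdgfrb. For Pdgfra 1421917_at they were Emc3 (0.988), Thumpd2 (0.986) and Ywhaq (0.981), of 24 over 0.95. Kit 1452514_a_at was followed by Pdrg1 (0.994), Mvb12b (0.987) and Smim19 (0.982), of 23 over 0.95, and Kitl 1415855_at by Zfp141 (0.967), Tubgcp6 (0.960) and Tgs1 (0.957), of 4 over 0.95.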

How the data were processed

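Whole-kidney RNA was measured on 6 arrays, 3 per genotype, grouped by the titles. The deposited values are intensities computed with MAS5, as named in the submitters' processing notes; its version and scaling target: not given in the sources used here. On the deposited intensities the mean after trimming 2 percent at each end was equal on all arrays, and array medians spanned 0.42 on the log2 scale, less than the 0.5 at which centring was planned, so none was applied. Symbols came from the platform annotation of the probe sets, updated by gene ID with RefSeq names (GRCm38.p6); promoter windows came from the same release.

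Values were used as log2(value + 16), which understates changes of dim probe sets. After leaving out 64 control probe sets, those with a mean on that scale at or above the median were tested (22519), and the others were fitted without this filter. Groups were compared with limma 3.58.1 in R 4.3.3 (lmFit, eBayes), Ret-deficient minus wild-type, with Benjamini-Hochberg adjustment over all tested probe sets; the fit was also tested on simulated data. Intervals are unadjusted. A gene in a list is represented by its brightest tested probe set. Named were all member probe sets, Ret, up to 3 genes of each pathway list (those with the smallest p, as none passed) and the 3 genes most like Pdgfra, Pdgfrb, Kit and Kitl. Marker genes named singly, and Fos, Junb and Ier3, were chosen after their values were seen. The members and lists were chosen with earlier results of these data known. Alternatives were the pseudocount, the filter, quantile and median scaling, a variance trend, array weights, a replicate block, a threshold of 0.1, other probe sets and each array left out.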

Additional observations from a re-analysis of the deposited data

How the results depend on the processing

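The count of 0 probe sets past the threshold among the 15 tested held under all 15 alternatives and at an adjusted p of 0.1. Some differences of the brightest probe set changed sign, none of them past the threshold. Pdgfra (-0.02) became 0.09 with median centring, 0.13 with array quality weights and 0.50 or 0.57 on its other probe sets, with -0.13 to 0.10 when each array was left out. Pdgfa (-0.13) became 0.03 on its other probe set, with -0.31 to 0.15. Signals at or near background give the next values, and no change is read from them. Pdgfb (-0.57) became 0.68 on its other probe set, with -0.93 to 0.02 when each array was left out. Pdgfd (0.20) became -1.42 on a probe set at background on all 6 arrays, while its tested probe set had -0.10 to 0.38 when each array was left out. The median of the adaptor list (0.01) became 0.13 with median centring, which moved the median of all tested probe sets to 0.10, against -0.01. Kit, Kitl, Pdgfrb and Pdgfc kept their direction on every tested probe set in each of the 15 alternatives that tested it. With median centring, however, Pdgfc 1419123_a_at stood at only -0.01.

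With the replicate number as a block the count of calls was again 0, and Kitl 1415855_at had -0.47 (limma adjusted p = 0.999). Deviations of same-numbered samples from their group means had correlations of 0.03, -0.04 and -0.12 over probe sets, and those of differently numbered samples -0.19 to 0.21. With 3 samples per group such correlations cannot decide whether same-numbered samples shared a litter.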
